A study of Mus musculus with 24 samples.

Results

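The DNA copy number of 10 genes of the p53 and Rb pathways was read in mouse neuroblastoma models. The 10 genes were named as core members of both pathways, and no copy number value entered the rule that chose them, although earlier results of these data were known. They were 10 of the 20604 autosomal protein-coding genes of the annotation. They are Trp53, Mdm2, Mdm4, Cdkn1a, Cdkn2a, Cdkn2b, Cdkn2c, Rb1, Ccnd1 and Cdk4. Each gene was placed on the genome by its GRCm39 position, and its value in a sample was the median log2 ratio of the segment that covered it. A log2 ratio of 0 is the level of the reference adrenal glands.

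Shallow whole genome sequencing (sWGS) had been performed on adrenal glands and tumours of transgenic mice. AGM were 5 adrenal glands with the genotype MYCN fl/wt, CRE +. TI were 8 tumours, all CRE + and labelled IGF2BP1 +/+ except for TI 1, which was IGF2BP1 +/-. TI 6 was taken from a tumour-bearing adrenal gland. TIM were 8 tumours labelled IMP1/MYCN, CRE +, where IMP1 is another name of IGF2BP1, and TIM 1 and TIM 5 were tumour-bearing adrenal glands. The reference were 3 adrenal glands that were CRE - (AG), which themselves were not analysed here. All AGM, TI and TIM animals carried CRE, which was driven by the Dbh promoter, and the transgenes sat at the Rosa26 locus, so that they were switched on in sympatho-adrenal cells. Copy number of bulk DNA averages over all cells of a piece of tissue, so a loss in every cell at one depth and a deeper loss in fewer cells cannot be told apart, and DNA cannot show which cell types were present. The study's methods describe biological replicates of its transgenic mice as individual animals, but the labels name no animal for a sample. For IGF2BP1 alone the paper counts as many tumours as tumour-bearing mice, and for the double transgenics more tumours than animals. Whether TIM samples share an animal is therefore not known here, and p-values measure the spread between these samples.

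The p53 protein, encoded by Trp53, halts the cell cycle or starts cell death when DNA is damaged or an oncogene is active. Mdm2 and Mdm4 hold p53 in check, and Cdkn1a is the p53 target that blocks cyclin-dependent kinases. Cdkn2a makes from separate first exons the Arf protein, which inhibits Mdm2, and the Ink4a protein, which inhibits Cdk4. Cdkn2b and Cdkn2c are relatives of Ink4a. Cyclin D1, encoded by Ccnd1, and Cdk4 phosphorylate the Rb protein, encoded by Rb1, which otherwise keeps E2F factors silent and the cell in G1. In human neuroblastoma, mutation of the p53 gene is uncommon at diagnosis, whereas changes of its regulators and of the Cdk4 and cyclin D branch are well known.

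The study called a gain at a log2 ratio of 0.3 or more and a loss at -0.4 or less. At these thresholds 9 member and tumour combinations carried an event, 6 gains and 3 losses. They lay in 7 of the 16 tumours. Among TI tumours 6 of 8 had at least 1 member gained or lost, and TI 2 and TI 4 had none. Among TIM tumours only TIM 9 had an event. No event was found in the 50 member and sample combinations of AGM, where the members' log2 ratios lay between 0.0045 and 0.0203. Gained were Trp53 (3 tumours), Cdkn1a (2 tumours) and Mdm4 (1 tumour), and lost were Cdkn2a, Cdkn2b and Rb1 (1 tumour each). Mdm2, Cdkn2c, Ccnd1 and Cdk4 passed neither threshold in any tumour.

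**Figure D1:**
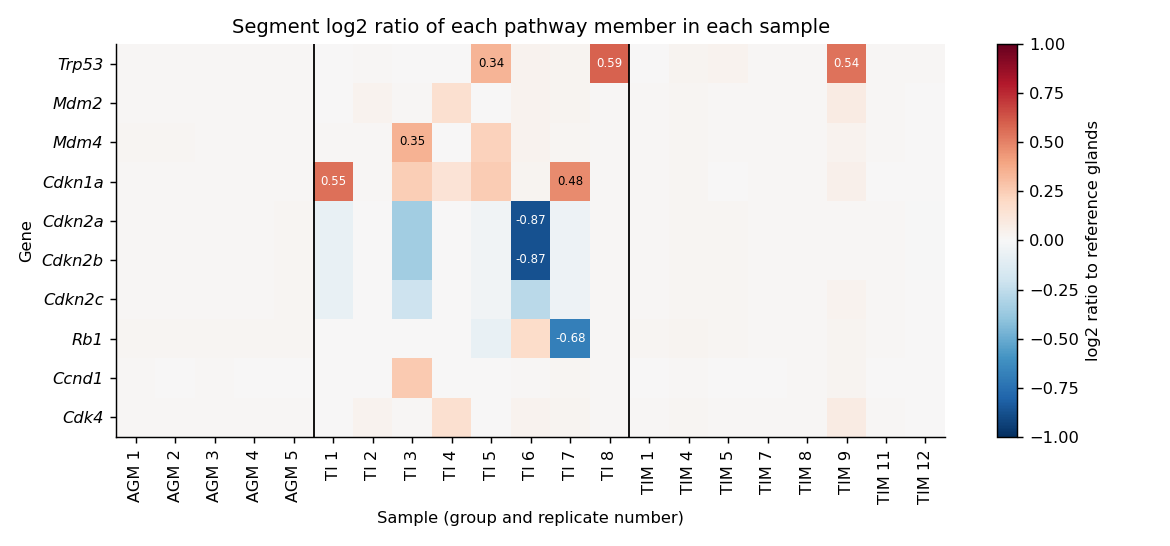
Segment log2 ratio (colour, relative to the reference adrenal glands) of the 10 members (rows) in the 21 samples (columns, grouped as AGM, TI and TIM by the black lines); values are written in the cells that pass the gain or loss threshold. The 9 written values stand in 7 tumours, 6 of them TI, and Cdkn2a and Cdkn2b share 1 colour in every sample.

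The counts were read beside the rate over all genes. In TI, 5 of 80 member and tumour combinations were gained (6.25%), against 9.19% of all gene and tumour combinations. Losses in TI made up 3 of 80 (3.75%), against 1.38%. In TIM, 1 of 80 combinations was gained (1.25%), against 3.64%, and none was lost, against 0.116%. In AGM, 0 of 50 were gained and 0 of 50 lost, against 0.0252% and 0.124%. Neighbouring genes share a segment, so the combinations were not independent. Mdm2 and Cdk4 lie 9.35 Mb apart on Chr 10 and had the same value in all 21 samples, as had Cdkn2a and Cdkn2b on Chr 4, so that the 10 members gave 8 different profiles.

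The losses and gains did not point the same way for the pathways. Less p53 or Rb activity is what would follow from a loss of Trp53, Cdkn1a, Rb1 or a Cdkn2 gene or a gain of Mdm2, Mdm4, Ccnd1 or Cdk4, by the known role of each gene. Of the 9 events, 4 in 3 tumours were of this kind: the Mdm4 gain in TI 3, the Cdkn2a and Cdkn2b losses in TI 6 and the Rb1 loss in TI 7. The other 5 events, the gains of Trp53 and Cdkn1a, were of the opposite kind and lay in 5 tumours. TI 7 held an event of each kind. No RNA or protein was compared here, so whether a gene's activity followed its copy number was not tested.

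No event was focal. A called region is a run of adjoining segments past the threshold, and it was termed focal under 5 Mb. The regions that held the 9 events were 10.9 to 118 Mb long. For 6 events calls of that direction spanned 50% or more of the chromosome in that tumour, and the other 3 events were long regions short of that. The number of focal events was also 0 with limits of 3 and 10 Mb.

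**Figure D2:**
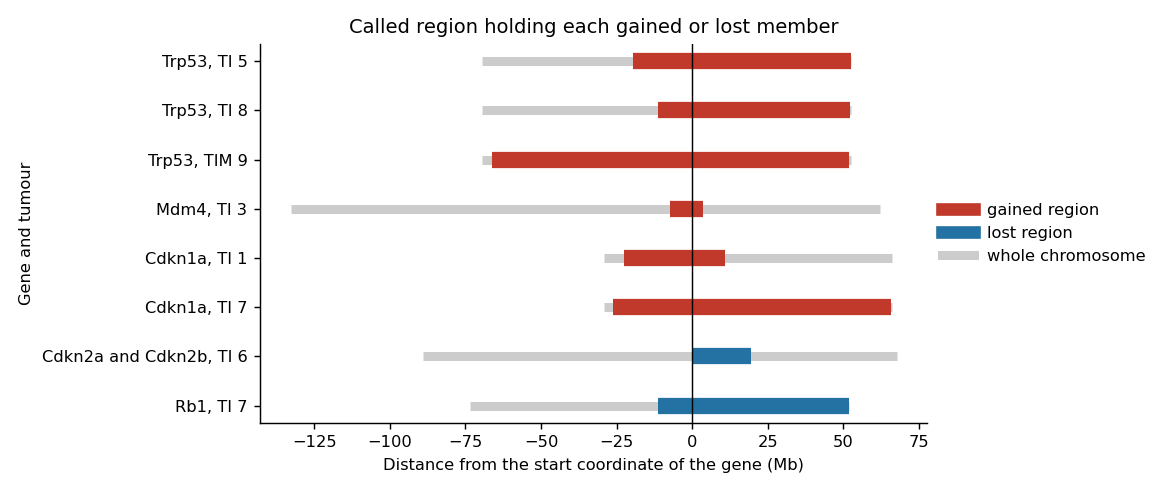
Position of the called region (red gained, blue lost) that held each event relative to the start coordinate of the gene (x axis, Mb), with the whole chromosome in grey; Cdkn2a and Cdkn2b share 1 row. Regions reach 10.9 to 118 Mb, and only the Chr 4 loss of TI 6 begins next to the gene it holds.

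The Chr 4 loss of TI 6 took Cdkn2a and Cdkn2b but began almost at Cdkn2a. For this reason the sequences just before the starts of both genes are shown, in lower case with motif matches in capitals. They are the 250 bases before each annotated start, from the RefSeq promoter table (build GRCm38.p6), placed on GRCm39 by exact match to the genome, and all are on the minus strand, 5′ to 3′. Searched on both strands were the E2F motif (TTTCCCGC, TTTCGCGC, TTTGCCGC or TTTGGCGC), the GC box (GGGCGG) and the TATA box (TATAAA), which do not overlap in these windows.
Cdkn2a, Ink4a start, chr4:89200430-89200679: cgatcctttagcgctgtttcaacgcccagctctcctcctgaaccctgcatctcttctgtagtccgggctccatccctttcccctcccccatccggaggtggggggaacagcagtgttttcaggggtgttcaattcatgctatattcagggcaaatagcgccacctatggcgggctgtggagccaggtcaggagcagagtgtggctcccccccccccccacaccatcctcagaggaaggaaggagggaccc
Cdkn2a, Arf start, chr4:89212857-89213106: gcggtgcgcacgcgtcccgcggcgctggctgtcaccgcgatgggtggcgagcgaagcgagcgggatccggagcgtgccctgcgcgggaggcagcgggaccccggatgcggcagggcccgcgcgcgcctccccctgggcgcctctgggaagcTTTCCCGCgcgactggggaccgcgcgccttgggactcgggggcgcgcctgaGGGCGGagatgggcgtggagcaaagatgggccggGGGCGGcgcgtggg
Cdkn2b start, chr4:89229270-89229519: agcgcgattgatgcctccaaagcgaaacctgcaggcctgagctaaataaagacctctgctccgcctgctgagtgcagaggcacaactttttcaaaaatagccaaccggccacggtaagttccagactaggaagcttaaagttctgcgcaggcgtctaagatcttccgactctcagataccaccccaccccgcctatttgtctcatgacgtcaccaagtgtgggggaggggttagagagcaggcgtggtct

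The window of the Arf start held 1 E2F match and 2 GC boxes and was 78.4% G and C. The window of the Ink4a start (60.0% G and C) and that of Cdkn2b (53.6%) held none of the 3 motifs. Over all 32851 promoter windows of the table, 1.86% held an E2F match, 32.7% a GC box and 12.4% a TATA box, and the mean share of G and C was 53.2%. A match is a match of letters only. The table matched 8 of the 10 members, all but Rb1 and Ccnd1.

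Cdkn2a and Cdkn2b were the members with the deepest loss, and their relative Cdkn2c was not called lost in any tumour. Cdkn2a (Chr 4, 89192708 to 89212890, minus strand) and Cdkn2b (89223204 to 89229276) lie 10.3 kb apart and always shared 1 segment. Their log2 ratios in TI were -0.87 at the lowest, in TI 6, -0.042 at the median and 0.0134 at the highest, in TI 8. In TIM they were -0.0006, 0.011 and 0.0205, and in the 5 AGM glands 0.0147, 0.0133, 0.0146, 0.0128 and 0.0177. TI 6 alone lay past the loss threshold, at a copy number of 1.09, and TI 3 came next with -0.34, or 1.58 copies, just outside it.

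In TI 6 the lost segment ran from 89180001 to 108740000 on Chr 4 and held 122 protein-coding genes in 19.6 Mb. It began 12.7 kb before the end of Cdkn2a that lies nearest to it, 20.4 kb from the Ink4a start, 32.9 kb from the Arf start and 43.2 kb from Cdkn2b. Segment starts followed a grid of 20 kb and the shortest segment was 40 kb, so this distance to Cdkn2a is under 1 grid step and whether the boundary lies inside or before the gene is not resolved. The nearest protein-coding gene before the boundary was Mtap (89055359 to 89099319), an enzyme of methionine salvage and often lost together with CDKN2A in human tumours. Mtap ended 80.7 kb before the boundary and was not lost, at a log2 ratio of 0.13.

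Beyond the boundary 66.4 of the remaining 67.7 Mb of Chr 4 were lost in 3 segments, and 42.3% of the chromosome was lost in all. Cdkn2c (109517957 to 109524386), 20.3 Mb beyond Cdkn2b, nonetheless stayed outside the loss call. It lay in a segment of 800 kb with 10 genes at a log2 ratio of -0.27, or 1.66 copies, between lost segments at -0.87 and -0.91. The end of Cdkn2c was 15.6 kb from the end of this segment, again under 1 grid step. The value of Cdkn2c in TI 6 is thus that of a short segment with a lost segment 15.6 kb away.

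**Figure D3:**
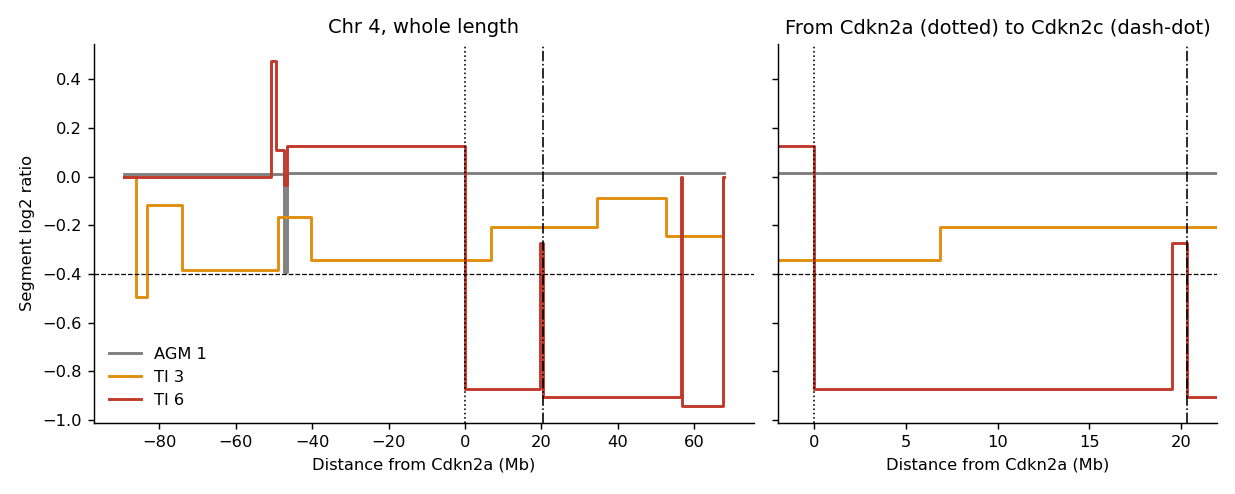
Segment log2 ratio along Chr 4 as distance from the start coordinate of Cdkn2a (x axis, Mb), over the whole chromosome (left) and from Cdkn2a to Cdkn2c (right), for AGM 1, TI 3 and TI 6; the dashed line is the loss threshold. TI 6 drops from 0.13 to -0.87 at Cdkn2a and stands at -0.27 around Cdkn2c, TI 3 is below 0 without a step at Cdkn2a, and AGM 1 is flat at both genes.

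TI 3 showed a different form of Chr 4 shift. Cdkn2a and Cdkn2b lay in a segment of 47.1 Mb at -0.34, and Cdkn2c in the next one, of 27.6 Mb, at -0.21. No boundary fell at the genes. For Cdkn2c, the log2 ratios in TI were -0.27 at the lowest, in TI 6, -0.042 at the median and 0.0134 at the highest, and in TIM 0.0031, 0.011 and 0.0326. Below the AGM range of 0.0128 to 0.0177 lay 7 of the 8 TI tumours and 5 of the 8 TIM tumours for all 3 genes, but only TI 3 and TI 6 by more than 0.1.

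Rb1, the gatekeeper of entry into S phase, was lost in 1 tumour. Its log2 ratio (Chr 14, 73421113 to 73563507, minus strand) was -0.68 at the lowest of TI, in TI 7, 0.0041 at the median and 0.18 at the highest, in TI 6. In TIM it was 0.0023, 0.0157 and 0.0299, and in the 5 AGM glands 0.0188, 0.0201, 0.0159, 0.019 and 0.0203. TI 7 stood far below every other sample, at 1.25 copies. The loss was 1 segment of 63.1 Mb, from 62080001 to the end of Chr 14, and held 243 genes. It began 11.3 Mb before Rb1, and the segment to its left had a log2 ratio of -0.22.

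Trp53, the p53 gene itself, was never lost and was gained in 3 tumours. Its log2 ratio (Chr 11, 69469669 to 69482701) was 0.0042 at the lowest of TI, 0.018 at the median and 0.59 at the highest. In TIM it was 0.0078, 0.0129 and 0.54, and in the 5 AGM glands 0.0145, 0.0121, 0.0132, 0.0113 and 0.0092. Past the threshold were TI 5 (0.34, 2.53 copies, the value nearest to the threshold among all gains), TI 8 (0.59, 3.0 copies) and TIM 9 (0.54, 2.92 copies), and no other tumour was above 0.0371.

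The gains that took Trp53 were parts of the long Chr 11 gains of these tumours. Ppm1d, a phosphatase that switches p53 off, lies 15.7 Mb beyond Trp53 and was gained in 6 TI tumours and in TIM 9. In 4 of these 7, TI 1, TI 2, TI 3 and TI 7, the gained region began only after Trp53, by 13.7, 3.8, 2.5 and 8.5 Mb, and Trp53 stayed at 0.0054 to 0.0286. In TI 5 and TI 8 it began 19.7 and 11.2 Mb before the end of Trp53, and in TIM 9 66.3 Mb before it, with 96.9% of Chr 11 covered. A gain with Ppm1d was thus also a gain of Trp53 in 3 of 7 tumours.

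Cdkn1a, the p53 target that inhibits cyclin-dependent kinases, was gained in 2 TI tumours and moved below the threshold in 3 more. Its log2 ratio (Chr 17, 29309936 to 29319701) was 0.0088 at the lowest of TI, 0.19 at the median and 0.55 at the highest. In TIM it was 0, 0.0093 and 0.0542, and in the 5 AGM glands 0.0144, 0.013, 0.0112, 0.0119 and 0.0123. The highest values were those of TI 1 (0.55, 2.93 copies) and TI 7 (0.48, 2.78 copies).

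In TI 7 the gain was 1 segment of 92.2 Mb, nearly all of Chr 17. In TI 1 called gains covered 96.2% of Chr 17 in more than 1 region, and the region with Cdkn1a was 33.6 Mb long and ended at a segment of -0.98. TI 5 (0.26) and TI 4 (0.14) carried lower shifts over 92.2 and 92.3 Mb, and TI 3 was at 0.25 over a segment of 8.24 Mb, beside a median of 0.18 over its whole Chr 17.

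Among the inhibitors of p53, Mdm4 was gained in 1 tumour and Mdm2 in none. The log2 ratio of Mdm4 (Chr 1, 132887222 to 132958299, minus strand) in TI was 0.0056 at the lowest, 0.016 at the median and 0.35 at the highest, in TI 3. In TIM it was 0.0018, 0.012 and 0.0336, and in the 5 AGM glands 0.016, 0.0176, 0.0129, 0.015 and 0.0156. TI 3 stood at 2.54 copies, and TI 5 followed at 0.23 over a segment of 112 Mb.

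The Mdm4 region of TI 3 was the shortest of the 9, 10.9 Mb from 125700001 to 136600000 on Chr 1 with 128 genes. The segments on both sides were already raised, at 0.19 and 0.20, so that the step into the region was small. Called gains covered 27.8% of Chr 1 in this tumour.

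Mdm2, the ubiquitin ligase of p53, and Cdk4, the kinase that phosphorylates Rb, had 1 shared profile (Chr 10, 117524780 to 117546730 and 126895180 to 126903789). It was 0.0069 at the lowest of TI, 0.018 at the median and 0.16 at the highest, and 0.0008, 0.012 and 0.0796 in TIM. The AGM glands lay at 0.0133 to 0.0151. TI 4 had the highest value, 2.23 copies over 21.6 Mb, and TIM 9 the highest of TIM.

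Ccnd1, the cyclin D partner of Cdk4 (Chr 7, 144483668 to 144493662, minus strand), lay between 0.0026 and 0.26 in TI with a median of 0.0101, between 0.0012 and 0.0305 in TIM and between 0.0045 and 0.0119 in AGM. TI 3 was the single tumour above 0.1. It reached 0.26, or 2.40 copies, below the gain threshold, over the end of Chr 7 from 143560001 to 144995196, the shortest segment among the raised values. Over all members, 12 combinations were shifted by at least 0.1 without a call, and all 12 were TI. Nearest below the gain threshold were Ccnd1 in TI 3 (0.2649), Cdkn1a in TI 5 (0.256) and Cdkn1a in TI 3 (0.2457), and nearest to the loss threshold were Cdkn2a and Cdkn2b in TI 3 (-0.3444).

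**Figure D4:**
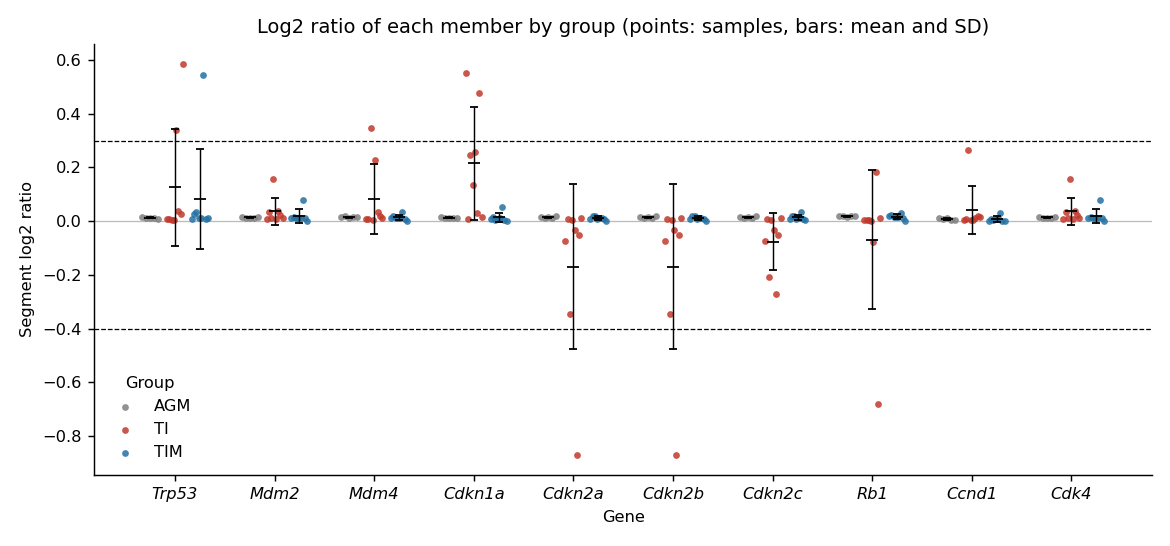
Segment log2 ratio (y axis) of each member (x axis) in AGM (n = 5, grey), TI (n = 8, red) and TIM (n = 8, blue); points are samples, black bars the mean ± SD, and dashed lines the thresholds of 0.3 and -0.4. TI is spread widely, by an SD of 0.31 for Cdkn2a and 0.21 for Cdkn1a, while AGM and TIM points lie close to 0 except for Trp53 in TIM 9.

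The tumour groups were compared first by the number of tumours with a call. Fisher's exact test (two-sided, adjusted by Benjamini-Hochberg over all 20604 genes) found no member to differ between TI and TIM for gains or for losses. It called 0% of all genes in either direction, and 1345 genes for gains and 6 for losses had an unadjusted p under 0.05, none of them a member. The lowest member p was that of Cdkn1a, 2 of 8 TI against 0 of 8 TIM (exact p = 0.467). No member was called in more than 2 of 8 tumours of a group. With so few calls none could pass, so this test cannot decide whether the groups differ.

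The mean log2 ratio does not depend on a threshold, and by an exact permutation test (two-sided, adjusted over all 20604 genes) 4 of 10 members differed between TI and TIM. The same test called 27.6% of all genes, 11.7% higher and 15.9% lower in TI, so the 4 members are to be read against a large background. Cdkn1a was higher in TI, 0.21 ± 0.21 against 0.0139 ± 0.017 (SD, n = 8 each), a difference of 0.20 (exact permutation p = 0.00839, adjusted p = 0.0382). Cdkn2a and Cdkn2b were lower in TI, -0.17 ± 0.31 against 0.0112 ± 0.0066, a difference of -0.18 (exact permutation p = 0.00637, adjusted p = 0.0308). Cdkn2c was lower as well, -0.077 ± 0.11 against 0.0141 ± 0.0094, a difference of -0.091 (exact permutation p = 0.00451, adjusted p = 0.0228).

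These 4 calls did not hold under every choice. None remained past an adjusted p of 0.05 when tumours from adrenal glands were left out, where the exact permutation gave an adjusted p = 0.105 for Cdkn1a, 0.168 for Cdkn2a and Cdkn2b, and 0.126 for Cdkn2c. The differences were then 0.2253 for Cdkn1a, -0.0784 for Cdkn2a and Cdkn2b, and -0.0625 for Cdkn2c. Centring each sample on its autosomal median ended the calls of Cdkn2a and Cdkn2b (exact permutation, adjusted p = 0.0988) at a difference of -0.176. None remained either when any 1 of the 8 TIM tumours was left out, where the exact permutation gave an adjusted p of 0.0558 to 0.102 for Cdkn1a, 0.185 to 0.246 for Cdkn2a and Cdkn2b, and 0.0661 to 0.101 for Cdkn2c. The differences themselves hardly moved in the runs without 1 TIM tumour, at 0.1989 to 0.2067 for Cdkn1a, -0.1817 to -0.1786 for Cdkn2a and Cdkn2b, and -0.0923 to -0.0881 for Cdkn2c, and the groups were then of unequal size, whose part in the lost calls was not tested. All 4 held in each of the 8 runs without 1 TI tumour, and the Cdkn2a difference fell to -0.080 in size at its smallest. All but 1 of the TI tumours had titles beginning SH and all TIM tumours titles beginning AGH. The title series and the genotype therefore cannot be told apart. Titles of the reference glands also began with SH, the series of most TI tumours and of no TIM or AGM sample. The only TI tumour titled AGH, TI 8, had values of 0.0147 for Cdkn1a and 0.0134 for the Cdkn2 genes.

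For the other members the means of TI and TIM were not separated. Trp53 differed by 0.044 (exact permutation p = 0.634), Mdm4 by 0.069 (exact permutation p = 0.211) and Rb1 by -0.085 (exact permutation p = 0.535). The Rb1 difference was 0.0026 without TI 7 and -0.12 without TI 6, where it passed (exact permutation, adjusted p = 0.00892). For Mdm2 and Cdk4 the difference was 0.017, and for Ccnd1 0.033. Without TI 3 the difference was 0.0313 for Mdm4 and 0.0015 for Ccnd1.

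Against the AGM adrenal glands no member passed by the difference in means in either tumour group. The exact permutation test called 3.25% of all genes for TI against AGM, and Cdkn1a came nearest among the members (difference 0.20, exact permutation p = 0.0513, adjusted p = 0.272). Ranks in place of means called Cdkn2a, Cdkn2b and Cdkn2c (exact permutation of the rank sum, adjusted p = 0.0351), beside 17.7% of all genes called by ranks. All 5 AGM glands had titles beginning AGH, so here too the title series and the genotype cannot be told apart. For TIM against AGM the exact permutation test called 0% of all genes, with 881 at an unadjusted p under 0.05 and no member among them, and the largest member difference was 0.070, for Trp53, where TIM 9 was the only gained tumour. Both comparisons share the 5 AGM glands.

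Genes that act around the members were counted from lists of p53 regulators (12 genes), p53 targets (11 genes) and the remaining Rb and E2F pathway (24 genes). Gains in TI made up 10.4% of the gene and tumour combinations of p53 regulators, 2.27% of p53 targets and 5.73% of the Rb and E2F list, beside 9.19% over all genes. Losses in TI were 3.12%, 1.14% and 1.56%, beside 1.38%. Gains in TIM were 4.17%, 4.55% and 4.17%, beside 3.64%. Most of these TIM gains were of Chr 6 genes, Hipk2 and Gadd45a (3 tumours each) and Ccnd2 and Cdkn1b (4 each). In the Rb and E2F list Ccnd2 and Cdkn1b were the only genes gained in TIM. No list gene was lost in TIM, beside 0.116%, and none was gained or lost in AGM. No call of a list gene was focal.

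Of the p53 regulators, Ppm1d was gained in 6 of 8 TI tumours (0.57 to 0.96) and 1 of 8 TIM tumours. Hipk2, a kinase that activates p53, was gained in 3 TI and 3 TIM tumours (0.30 to 0.54 and 0.49 to 0.79). Trp73, a p53 relative near the end of Chr 4, was lost in 2 TI tumours, with a lowest log2 ratio of -1.0. Atm, Atr and Chek1, the kinases of the DNA damage response, all lie on Chr 9 and were not called in any tumour, with TI values from -0.38 to 0.0149.

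By the exact permutation test of TI against TIM, adjusted over all genes, 1 p53 regulator was higher (Ppm1d, difference 0.40) and 4 were lower in TI (Atm -0.17, Atr -0.19, Chek1 -0.18 and Trp73 -0.30) of the 12 genes, beside 11.7% higher and 15.9% lower over all genes. The median difference over the list was -0.066, beside -0.0125 over all genes. Calls of list genes, here and below, are given for the main setting only, without the alternatives shown for the members. Those of Ppm1d, E2f2, Sesn2 and Fas were near the limit (exact permutation, adjusted p = 0.0445).

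In the Rb and E2F list E2f6, a repressive E2F factor on Chr 12, was gained in 5 TI tumours (0.50 to 0.64) and in no TIM tumour. Ccnd2, another D cyclin, and Cdkn1b, an inhibitor of Cdk2, lie together on Chr 6 and were gained in 4 TIM tumours. In TI they were gained in 2 tumours and lost in 1, with a lowest value of -0.99. Higher in TI by the exact permutation test, adjusted over all genes, were E2f6 (0.40) and Ccnd3 (0.18), which lies on Chr 17 as Cdkn1a does. Lower were 5 genes, E2f2 (-0.15) and Ccne2 (-0.041) on Chr 4 and Tfdp2 (-0.19), Cdkn2d (-0.18) and Cdc25a (-0.17) on Chr 9. These 7 of 24 genes stand beside 27.6% called over all genes, a share close to that of the list. The median difference over this list was -0.019.

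Among p53 targets, Gadd45a, a growth arrest gene on Chr 6, was gained in 2 TI and 3 TIM tumours (0.40 to 0.44 and 0.48 to 0.60). By the same exact permutation test no target was higher in TI, and 3 were lower, Fas (-0.070), the death receptor gene on Chr 19, and on Chr 4 Sesn2 (-0.15) and Trp53inp1 (-0.041). These 3 of 11 genes are close to the 27.6% called over all genes. The median difference was -0.017. Many list genes share a chromosome with a member, so these counts were not independent of the members' own.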

How the data were processed

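Per the labels and the study's methods, sWGS reads were trimmed with cutadapt 2.8, aligned to mm39 with HISAT2 2.1.0, handled with SAMtools 1.10 and turned into copy number segments with cn.MOPS. Window length, read filters and segmentation settings are not given in the sources used here. The authors deposited, for every segment of a sample, the median and the mean of its log2 ratio, with CRE - adrenal glands as the reference. Depth per library was not analysed here, so intervals from counting are not given. The spread between AGM glands within a member served as a measure of precision. This spread covers only glands with titles beginning AGH, and the long segments that held the members in them. The precision of tumour libraries with titles beginning SH, and of shorter segments in tumours, was not measured. Segment ends matched the GRCm39 chromosome lengths, and genes were taken from GENCODE vM39 on GRCm39.

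Each gene took the median of the segment with the largest overlap, and each member lay in 1 segment in every sample. No pair of samples held identical values. Tests were run over all 20604 genes with Python 3.11.15, numpy 2.4.6, scipy 1.17.1 and pandas 2.3.3, and figures drawn with matplotlib 3.10.9. The test code was run on simulated data, and the limit for passing its Fisher step was lowered once after the first outcome was seen, with the method unchanged. The smallest p that the exact permutation test allows is 0.000155 for TI against TIM and 0.000777 against AGM. Members, lists and tests were chosen with earlier results of these data known. List genes were named where they were gained or lost in at least 3 tumours of a group, lay in a focal region or had an adjusted p under 0.05 between TI and TIM. Alternatives were other thresholds, rounded copy number, the segment mean, centring, ranks, region length, subsets of tumours and the replicate block. Leaving out each tumour in turn, and the segment mean against AGM, were added after seeing the data.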

Additional observations from a re-analysis of the deposited data

Results flagged for a closer look

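In 11 of 30 sets of a member and a group, the highest or lowest sample lay farther from its neighbour than Dixon's 95% limit allows. Chance gives about 1 in 20 sets, or 1.5 of 30, and members that share a segment are counted more than once.

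The lowest of TI was TI 6 for Cdkn2a and for Cdkn2b (-0.871, next -0.3444) and TI 7 for Rb1 (-0.6815, next -0.0764). The highest of TI was TI 4 for Mdm2 and for Cdk4 (0.1586, next 0.0381) and TI 3 for Ccnd1 (0.2649, next 0.0202).

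TIM 9 was the highest of TIM in all 5 TIM sets of this kind. Its Trp53 value was 0.5446 (next 0.0331), Mdm2 and Cdk4 were at 0.0796 (next 0.0174), Cdkn1a at 0.0542 (next 0.0161) and Ccnd1 at 0.0305 (next 0.0109). Only the Trp53 value passed a threshold.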

How the results depend on the processing

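The count of 5 gained combinations in TI became 9 at thresholds of 0.2 and -0.2, 13 at 0.1 and -0.1, 2 at 0.5 and -0.6, 3 by rounded copy number and 1 with AGH titles only. The 3 losses in TI became 7 at 0.2 and -0.2, 7 at 0.1 and -0.1, 5 with the segment mean, 1 outside the adrenal gland and 0 with AGH titles only. Leaving out each tumour gave 1 to 3 losses in TI, the lowest without TI 6, and 0 to 1 gains in TIM, the lowest without TIM 9.

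The 4 members that differed in mean log2 ratio between TI and TIM became 0 outside the adrenal gland, 2 (Cdkn1a and Cdkn2c) after centring on the autosomal median and 0 to 5 when each tumour was left out. Against AGM, ranks called 3 in place of 0 for TI, beside 17.7% of all genes. Shared replicate numbers did not pair the samples, since the correlations of TI and TIM deviations over the 5 numbers ran from -0.366 to 0.404. With the replicate block the count was 0, in a design whose smallest p is 0.0625.

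Signs reversed only among differences that had not passed. When each tumour was left out (TI against TIM), Mdm2 and Cdk4 ranged from -0.0009 (without TI 4) to 0.0251, Rb1 from -0.1211 to 0.0026 (without TI 7) and Trp53 from -0.0213 (without TI 8) to 0.1105. For TIM against AGM, the replicate block gave -0.0012 for Mdm2 and Cdk4, -0.0024 for Cdkn1a, 0.0011 for the 3 Cdkn2 genes, 0.001 for Rb1 and -0.002 for Ccnd1. The segment mean gave -0.0027 for Mdm2 and Cdk4 and -0.0184 for Cdkn1a, and leaving out each AGM gland gave -0.0003 to 0.0015 for Ccnd1 and -0.001 to 0.0003 for Cdkn2c. The cause of these changes was not tested. AGM values ran from 0.0045 to 0.0203 over all members, and their SD within a member from 0.0007 (Mdm2 and Cdk4) to 0.0033 (Ccnd1). With no depth per library, differences of this size were not resolved here.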

Other observations

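Segment means and medians differed for some members. In 10 member and tumour combinations of TI the segment mean was at least 0.2 from 0 while the median lay within 0.1 of it. They were Cdkn2a, Cdkn2b and Cdkn2c in TI 1 (mean -0.25, median -0.075), TI 5 (-0.21 and -0.032) and TI 7 (-0.23 and -0.052), and Rb1 in TI 5 (-0.26 and -0.076). In AGM, the segment means of the members lay between -0.0296 and 0.0492. Of these combinations none passed the loss threshold by either value, whereas Cdkn2a and Cdkn2b in TI 3 passed it by the mean (-0.42) and not by the median (-0.34).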
